A study of Homo sapiens with 18 samples.

Results

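SEMA3C, CD200 and FLRT3 are 3 genes of cell guidance and cell contact whose array signal is switched between LNCaP prostate cancer cells and their subline LNCaP-abl. They were taken by name, with every probe set that the platform annotation gives to them, which is 6 probe sets of the 54613 non-control probe sets on the array and 3 of the 19775 genes named there. The genes were picked because they differ between LNCaP-abl and LNCaP with control siRNA and vehicle, so that difference is described here and not tested. SEMA3C was high in LNCaP and low in LNCaP-abl, while CD200 and FLRT3 were low in LNCaP and high in LNCaP-abl.

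The series asked which genes depend on TRIM24, a bromodomain protein that acts with nuclear receptors, in prostate cancer cells. The 18 Affymetrix arrays, each hybridised with the total RNA of a single sample, made up 6 groups of 3. LNCaP is an androgen-responsive line from a human prostate cancer metastasis, and LNCaP-abl is a subline selected from it by long culture without androgen, so each line is a single cell population. In 4 groups LNCaP cells carried control siRNA or TRIM24 siRNA, each with ethanol vehicle or with 10 nM DHT (dihydrotestosterone, the strongest natural androgen) for 24 h. In the other 2 groups LNCaP-abl cells carried control siRNA or TRIM24 siRNA, both with vehicle. Transfection lasted 48 h in all groups, and the growth protocol, which is worded for LNCaP and is the same text on every array, describes 48 h of hormone starvation in charcoal-stripped serum before treatment. Whether the 3 arrays of a group came from separate cultures is not stated, so a p-value here weighs a difference against array spread that could be purely technical.

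SEMA3C encodes a secreted class 3 semaphorin, a ligand that binds neuropilins and plexins on the surface of target cells and steers axons, vessels and migrating cells. In prostate cancer cells it is known as an androgen-responsive gene. CD200 encodes a membrane glycoprotein of the immunoglobulin superfamily that engages the receptor CD200R1 on myeloid cells and dampens them. FLRT3 encodes a transmembrane protein with leucine-rich repeats that binds latrophilins and UNC5 receptors on neighbouring cells and associates with FGF receptors in the same cell.

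On GRCh38.p14, RefSeq places SEMA3C at chr7:80742538-80922389, CD200 at chr3:112332573-112362812 and FLRT3 at chr20:14322985-14337612. FLRT3 lies wholly within the span of MACROD2 (chr20:13995516-16053197). The promoter table held 4 windows for the 3 genes, and the 250 bases before each annotated start are shown because the genes share a switch between lines and SEMA3C also responds to androgen. Capitals mark the letters GGGCGG, as in the core of a GC box, and TATAAA, as in a TATA box, on either strand, wherever they fall in the window.
SEMA3C, first start (chr7:80922390-80922639, minus strand): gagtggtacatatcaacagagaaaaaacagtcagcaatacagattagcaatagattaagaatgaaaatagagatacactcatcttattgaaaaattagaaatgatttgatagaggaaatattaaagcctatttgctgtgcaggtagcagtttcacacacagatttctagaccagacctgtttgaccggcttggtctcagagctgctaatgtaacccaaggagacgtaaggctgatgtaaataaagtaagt
SEMA3C, second start (chr7:80919052-80919301, minus strand, inside the gene's span): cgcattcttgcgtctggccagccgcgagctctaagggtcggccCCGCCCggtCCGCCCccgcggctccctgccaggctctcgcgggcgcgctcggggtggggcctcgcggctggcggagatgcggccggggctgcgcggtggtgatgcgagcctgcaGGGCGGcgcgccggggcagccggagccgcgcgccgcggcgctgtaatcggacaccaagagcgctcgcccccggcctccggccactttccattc
CD200 (chr3:112332906-112333155, plus strand, inside the gene's span): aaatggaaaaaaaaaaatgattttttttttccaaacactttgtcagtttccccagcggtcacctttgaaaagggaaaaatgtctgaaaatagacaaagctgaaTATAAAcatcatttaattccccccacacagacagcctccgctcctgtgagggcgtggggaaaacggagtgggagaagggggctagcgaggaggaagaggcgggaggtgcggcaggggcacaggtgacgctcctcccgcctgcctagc
FLRT3 (chr20:14337613-14337862, minus strand): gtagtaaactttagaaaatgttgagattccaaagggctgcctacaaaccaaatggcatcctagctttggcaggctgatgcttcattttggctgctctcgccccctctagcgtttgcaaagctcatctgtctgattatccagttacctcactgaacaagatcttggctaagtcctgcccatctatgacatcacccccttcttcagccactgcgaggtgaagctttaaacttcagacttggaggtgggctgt

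The SEMA3C starts differed from each other in base composition. The first SEMA3C window held 2 CG dinucleotides and 36.4% G or C, and the second held 39 CG dinucleotides and 77.6% G or C. CD200 had 9 CG dinucleotides and FLRT3 had 3, against a median of 11 over 35116 RefSeq promoter windows of the same length. GGGCGG occurred 3 times in the second SEMA3C window, starting 207, 198 and 93 bases before the start, and 42.64% of all windows hold it. TATAAA occurred once, 147 bases before the CD200 start, and 10.72% of all windows hold it. The letters of the androgen receptor half-site AGAACA, found in 12.39% of all windows, were in none of the 4 windows. All motifs were searched on both strands, and a match or its lack describes only these letters in these windows. The array signal does not tell the 2 SEMA3C starts apart.

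The values are log2 RMA expression values as deposited, and each gene was read from its brighter probe set, by the mean of all 18 arrays. Genes entered the tests when at least 3 arrays reached 5.88, the median of all non-control values, which left 13613 genes. All 3 genes passed this filter only through the line in which they are high, so they had to differ between the lines and their number passing is no evidence. Array medians lay between 5.83 and 5.93, arrays of a group correlated at 0.996 to 0.998, and no arrays held identical values. TRIM24 signal under its siRNA was 25.1% of control in vehicle-treated LNCaP, 22.7% in LNCaP with DHT and 23.6% in the subline. Of 8 luminal prostate markers, 7 were at or above 5.88 in the LNCaP vehicle groups, all 8 in the DHT groups and 6 in LNCaP-abl, where KLK2 and KLK3 were below. None of 4 basal markers reached that value in any group. Of 5 neuroendocrine markers, CHGA, CHGB and INSM1 were below it in all groups, and SYP and ENO2 were above it in all groups. With control siRNA and vehicle, ENO2 averaged 7.7 in LNCaP and 8.4 in LNCaP-abl, and SYP averaged 6.33 in both. The leukocyte and endothelial markers PTPRC, CD14, CDH5 and KDR were below 5.88 in all groups. PECAM1 and VWF were above it in all groups, and CD3E in the LNCaP vehicle groups alone. With 3 arrays per group, precision is set by the array number.

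SEMA3C, the secreted ligand, gave a bright signal in LNCaP and a signal below 5.88 in LNCaP-abl. The 3 LNCaP arrays with control siRNA and vehicle read 11.84, 11.76 and 11.71, and the 3 LNCaP-abl arrays with control siRNA read 4.20, 4.41 and 4.15. No LNCaP-abl array came near any LNCaP array. In these bulk RNA samples, fewer cells with the transcript and less transcript per cell cannot be told apart. The difference of -7.52 on the log2 scale, 183-fold on the RMA scale, is the one the gene was picked for. The dimmer probe set gave 8.23, 8.18 and 8.06 in LNCaP and 4.01, 4.70 and 4.62 in LNCaP-abl. That is a difference of -3.71, in the same direction and smaller.

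**Figure D1:**
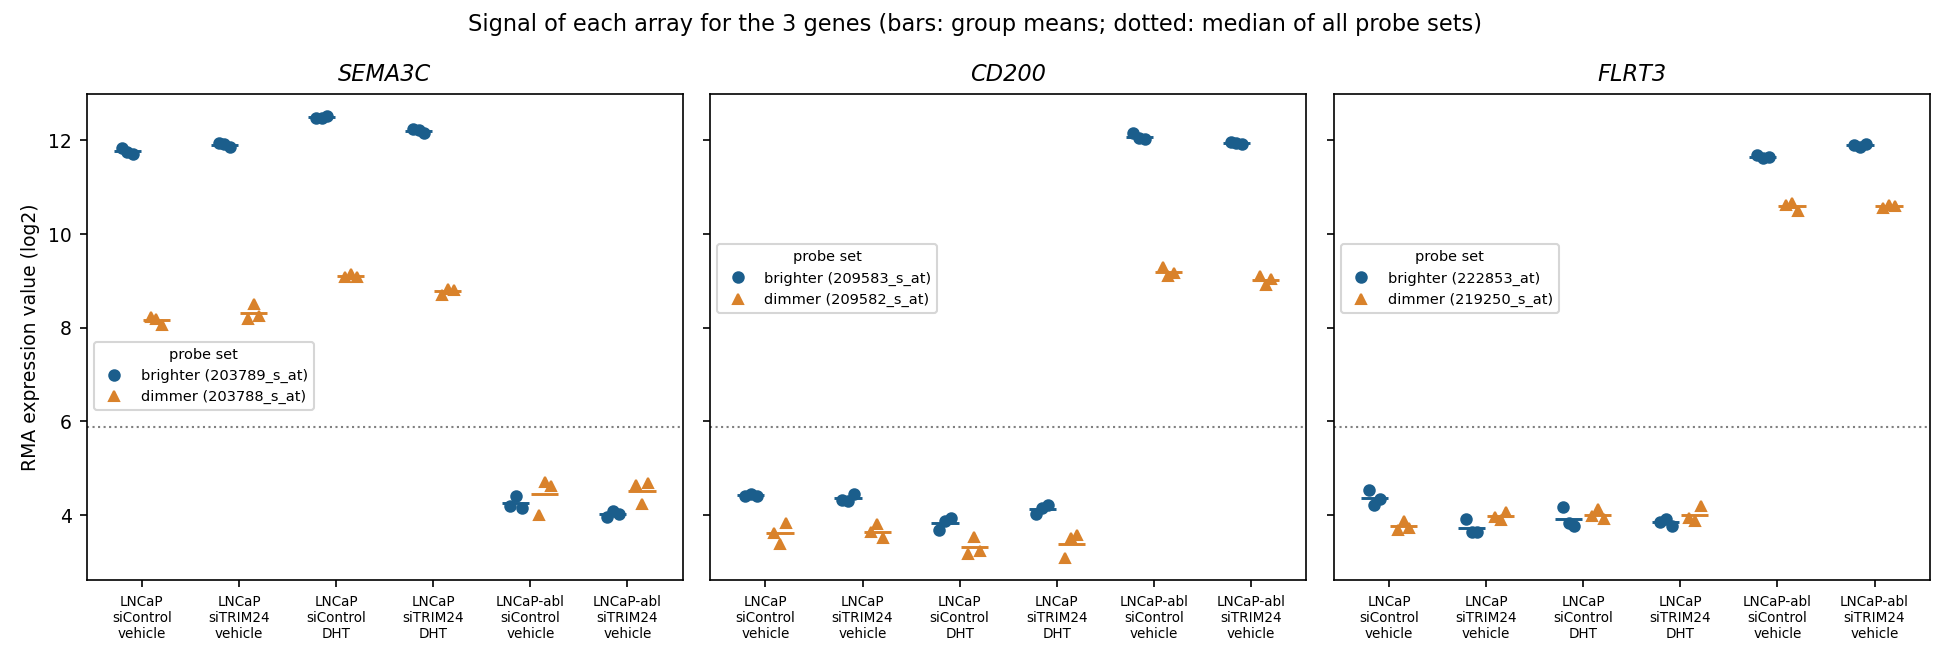
Log2 RMA value of every array (points) and group mean (bars) for both probe sets of SEMA3C, CD200 and FLRT3 in the 6 groups, with the dotted line at 5.88, the median of all probe sets. SEMA3C lies above the line in the LNCaP groups and below it in the LNCaP-abl groups, and CD200 and FLRT3 do the reverse, in both probe sets.

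CD200, the surface ligand of an inhibitory myeloid receptor, went the other way. Its LNCaP arrays with control siRNA and vehicle read 4.41, 4.44 and 4.41, and the LNCaP-abl arrays with control siRNA read 12.16, 12.04 and 12.04. The groups were separated by 7.66 on the log2 scale, 202-fold on the RMA scale. In the dimmer probe set CD200 moved from 3.62, 3.38 and 3.84 to 9.29, 9.11 and 9.17, a difference of 5.58. In all LNCaP groups both CD200 probe sets stayed below 5.88.

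FLRT3, the adhesion receptor, followed the pattern of CD200. Its LNCaP arrays with control siRNA and vehicle read 4.54, 4.21 and 4.35, and the LNCaP-abl arrays with control siRNA read 11.68, 11.63 and 11.65. The difference was 7.29, or 156-fold on the RMA scale. In the dimmer probe set FLRT3 moved from 3.67, 3.88 and 3.73 to 10.62, 10.66 and 10.50, a difference of 6.83. Both probe sets were thus bright in LNCaP-abl and below 5.88 in LNCaP. Against LNCaP with control siRNA and DHT, the LNCaP-abl difference was -8.24 for SEMA3C, 8.25 for CD200 and 7.73 for FLRT3. Those values share the LNCaP-abl control arrays with the difference that picked the genes and are given as a description.

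Arrays with TRIM24 siRNA were not used in the difference that picked the genes, and the same line difference was tested in them with limma. They are no independent check. These arrays helped carry the genes past the filter, and the genes were chosen with earlier results of these data known. The adjusted p-values thus set each difference against array spread alone. SEMA3C read 11.94, 11.93 and 11.86 in LNCaP and 3.95, 4.09 and 4.02 in LNCaP-abl with TRIM24 siRNA. It was lower in LNCaP-abl, with a log2 difference of -7.89 ± 0.06 (SE, n = 3 per group; 237-fold), with a limma adjusted p of 4.25e-21. Every LNCaP-abl array lay below every LNCaP array, in the dimmer probe set too, where the difference was -3.80.

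CD200 read 4.33, 4.31 and 4.46 in LNCaP and 11.96, 11.95 and 11.92 in LNCaP-abl with TRIM24 siRNA. The difference was 7.58 ± 0.06 (SE, n = 3 per group; 191-fold), with a limma adjusted p of 1.47e-20. FLRT3 read 3.91, 3.64 and 3.64 in LNCaP and 11.90, 11.86 and 11.92 in LNCaP-abl, a difference of 8.16 ± 0.10 (SE; 286-fold), with a limma adjusted p of 9.59e-19. The arrays of the lines did not overlap for either gene, and the dimmer probe sets gave 5.37 for CD200 and 6.62 for FLRT3.

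The test called all 3 genes in that comparison, as it did 69.8% of all genes tested, and nothing is read from that count because genes that pass the filter through a single line have to differ between the lines. By size, the median absolute line difference over the 13613 genes was 0.26, and 0.301% of genes were higher and 0.404% lower in LNCaP-abl by at least 4. The brighter probe sets of all 3 genes lay beyond 4, each against a line in which it was below 5.88, and the dimmer SEMA3C probe set, at -3.80, did not. Luminal markers summed to between 80.97 and 81.17 in LNCaP and between 76.10 and 76.56 in LNCaP-abl with TRIM24 siRNA. Among them KLK3 differed most, with means of 8.0 in LNCaP and 5.7 in LNCaP-abl. TMPRSS2 was higher in LNCaP-abl (9.65 and 10.28), and the other luminal markers were lower. Fibroblast and mesenchymal markers, with 4 of 7 at or above 5.88 in LNCaP and 5 of 7 in LNCaP-abl, summed to between 45.59 and 45.85 and between 40.62 and 41.15. The lower mesenchymal sum was not a fall of the whole set. VIM averaged 10.67 in LNCaP and 6.06 in LNCaP-abl, while COL3A1 was higher in LNCaP-abl (5.29 and 6.23). The part of the luminal and mesenchymal markers in the line difference was not tested.

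Within LNCaP, SEMA3C rose with androgen and rose less after TRIM24 knockdown. With control siRNA and DHT its arrays read 12.49, 12.47 and 12.53, all above the vehicle arrays given earlier. The rise was 0.73 ± 0.06 on the log2 scale (SE, n = 3 per group; 1.65-fold), with a limma adjusted p of 3.06e-08. The dimmer probe set gave 9.08, 9.15 and 9.09 with DHT, a rise of 0.95 ± 0.15 (SE) with a limma adjusted p of 6.43e-05. DHT with control siRNA changed 45.7% of all genes tested, so a call alone is common here.

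With TRIM24 siRNA the DHT arrays of SEMA3C read 12.23, 12.22 and 12.16, between the vehicle arrays and the DHT arrays with control siRNA. The rise with DHT was then 0.29 ± 0.06 (SE, n = 3 per group; 1.23-fold), with a limma adjusted p of 0.000543, in a comparison that called 43.5% of genes. In the dimmer probe set the rise was 0.46, with a limma adjusted p of 0.0196. The interaction of knockdown with DHT, which is the difference between the DHT responses, was -0.43 ± 0.08 (SE) with a limma adjusted p of 0.00327. This interaction was called for 11.1% of genes, and the dimmer probe set gave a like size with a wider error, -0.49 ± 0.21 (SE), which did not pass (limma adjusted p = 0.183).

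**Figure D2:**
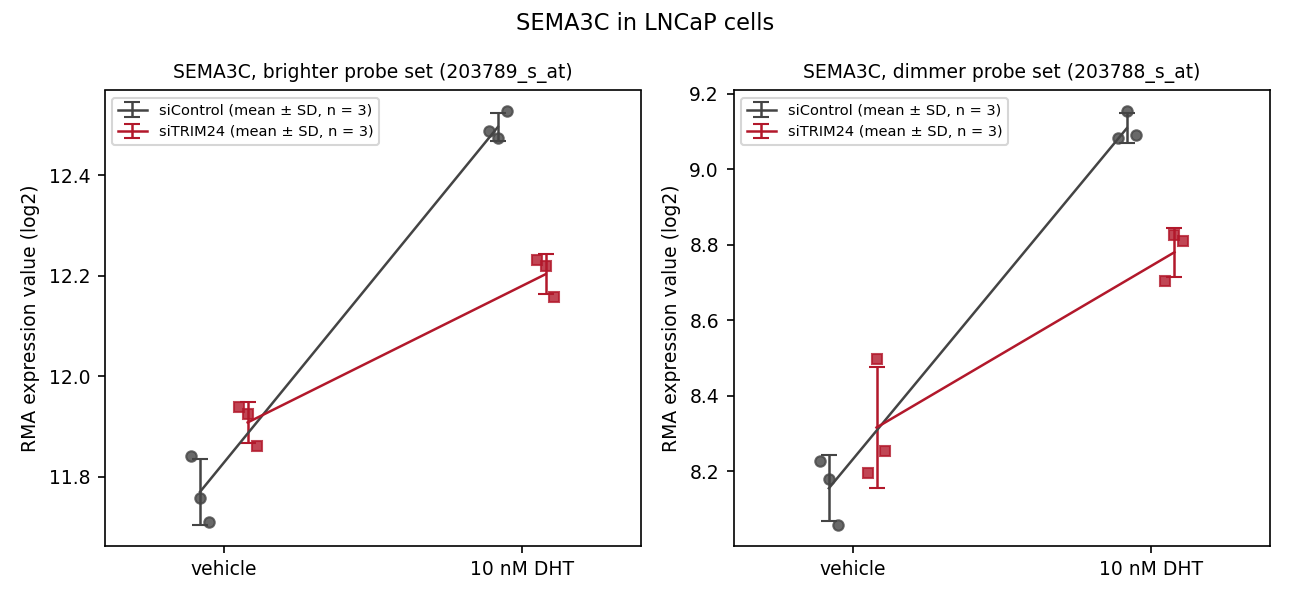
Log2 RMA value of SEMA3C in LNCaP with vehicle or 10 nM DHT for each siRNA (points, arrays; lines, means; error bars, SD, n = 3), brighter probe set on the left and dimmer on the right, on axes that do not start at 0. The line with TRIM24 siRNA rises by 0.29 and the line with control siRNA by 0.73 in the brighter probe set.

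Seen as knockdown effects, the same values gave no called change of SEMA3C with vehicle and a fall with DHT. With vehicle the TRIM24 siRNA arrays all lay above the control arrays, by 0.14 ± 0.06 (SE; 95% interval 0.015 to 0.261), with a limma adjusted p of 0.0731. Without replicate 1 of the control arrays the difference was 0.17 and passed. With DHT they all lay below, a difference of -0.29 ± 0.06 (SE), which left 81.6% of control (limma adjusted p = 0.000681). With DHT the dimmer probe set gave -0.33 ± 0.15 (SE) and did not pass (limma adjusted p = 0.0993). The log2 difference between 3-prime and 5-prime control probes of GAPDH and ACTB, a sign of RNA quality, was higher in each knockdown group than in its control. For ACTB it went from 1.85 to 2.19 with DHT. With that difference as a covariate the knockdown value of SEMA3C with DHT was -0.21 ± 0.11 (SE) and did not pass (limma adjusted p = 0.219). Its error was 0.06 without the covariate. The interaction of knockdown with DHT for SEMA3C was -0.40 ± 0.09 (SE) and passed (limma adjusted p = 0.0151). Since the covariate was higher in each knockdown group, it cannot be fully told apart from knockdown.

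CD200 and FLRT3 in LNCaP moved only within the dim range, below 5.88 in all 4 groups, and their probe sets did not move alike. CD200 read 3.67, 3.87 and 3.94 with control siRNA and DHT, below its vehicle arrays, a difference of -0.59 ± 0.06 (SE; limma adjusted p = 1.14e-06). The dimmer CD200 probe set gave -0.30 with overlapping arrays (limma adjusted p = 0.09). With TRIM24 siRNA the brighter probe set read 4.03, 4.14 and 4.21 with DHT, and its difference from vehicle was -0.24 ± 0.06 (SE; limma adjusted p = 0.00574). The interaction of knockdown with DHT was 0.35 ± 0.09 (SE; limma adjusted p = 0.0213), against 0.039 in the dimmer probe set. Without replicate 1 or 2 of LNCaP with TRIM24 siRNA and vehicle, or replicate 3 of LNCaP with TRIM24 siRNA and DHT, it did not pass, with values of 0.33, 0.32 and 0.31.

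FLRT3 in LNCaP gave opposite signs in its probe sets for DHT with control siRNA and for knockdown with vehicle. The signs were the same, and neither probe set passed, for knockdown with DHT (-0.083 and -0.0015) and for DHT with TRIM24 siRNA (0.11 and 0.035). With control siRNA and DHT the brighter probe set read 4.17, 3.84 and 3.77, lower than with vehicle (-0.44 ± 0.10, SE; limma adjusted p = 0.00164), and the dimmer one read 3.97, 4.12 and 3.93, higher by 0.25 (limma adjusted p = 0.0255). With TRIM24 siRNA and vehicle the brighter probe set was lower than control (-0.63 ± 0.10, SE; limma adjusted p = 8.41e-05) and the dimmer one higher by 0.21 (limma adjusted p = 0.0607). No direction can be given for FLRT3 in LNCaP where its probe sets oppose each other. The interaction of knockdown with DHT was 0.55 ± 0.14 (SE; limma adjusted p = 0.0193) in the brighter probe set and -0.21 in the dimmer one. It did not pass without replicate 2 of LNCaP with TRIM24 siRNA and vehicle (0.50) or replicate 3 of LNCaP with control siRNA and DHT (0.47).

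By count, knockdown in LNCaP with vehicle called 1 of the 3 genes, FLRT3, against 38.5% of all genes. Knockdown with DHT called 2, SEMA3C and CD200, against 40.2%. CD200 was there 0.29 ± 0.06 (SE) higher in the dim range. With the RNA quality covariate it lost its call (0.26 ± 0.13, SE; limma adjusted p = 0.173). DHT with control siRNA called all 3, against 45.7% of all genes, and DHT with TRIM24 siRNA called SEMA3C and CD200, against 43.5%. The interaction of knockdown with DHT called all 3, against 11.1%, by the brighter probe sets alone. CD200 and FLRT3 were below 5.88 in all LNCaP groups and were tested only because LNCaP-abl carried them past the filter. Nothing is therefore read from the counts in these comparisons. These comparisons share arrays with each other, and those that use LNCaP with control siRNA and vehicle share them with the difference that picked the genes.

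In LNCaP-abl, where CD200 and FLRT3 are bright, neither passed the test for TRIM24 knockdown. The LNCaP-abl control arrays in this test are shared with the difference that picked the genes. CD200 read 12.16, 12.04 and 12.04 with control siRNA and 11.96, 11.95 and 11.92 with TRIM24 siRNA. The arrays did not overlap, in either probe set, but the difference of -0.14 ± 0.06 (SE; 95% interval -0.271 to 0.0011) did not pass (limma adjusted p = 0.0987). Arrays of these groups did not overlap for 52% of the genes tested.

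FLRT3 read 11.68, 11.63 and 11.65 with control siRNA and 11.90, 11.86 and 11.92 with TRIM24 siRNA, again without overlap. The difference of 0.24 ± 0.10 (SE; 95% interval 0.03 to 0.45) did not pass (limma adjusted p = 0.0599), and with only the LNCaP-abl arrays in the fit it passed at the same size (limma adjusted p = 0.00267). The dimmer probe set read 10.55, 10.62 and 10.60 against 10.62, 10.66 and 10.50, a difference of -0.0004. SEMA3C, dim in both groups, was lower with knockdown (-0.23 ± 0.06, SE; limma adjusted p = 0.0039), while its dimmer probe set gave 0.078 and overlapped. With the RNA quality covariate the SEMA3C value was -0.19 ± 0.07 (SE) and did not pass (limma adjusted p = 0.0555). SEMA3C was thus 1 of the 3 genes called in LNCaP-abl, against 45.6% of all genes, and that call lies wholly below 5.88.

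The interaction of knockdown with cell line called 2 of the 3 genes, against 28.5% of all genes. It equals the line difference with TRIM24 siRNA minus that with control siRNA, for which the genes were picked. Nothing is therefore read from that count, and its p-values are no independent check. The interaction was -0.37 ± 0.08 (SE; limma adjusted p = 0.00348) for SEMA3C and 0.87 ± 0.14 (SE; limma adjusted p = 0.000304) for FLRT3. Both rest on a dim line, and the dimmer probe sets gave -0.083 for SEMA3C and -0.21 for FLRT3. For CD200 it was -0.080 ± 0.090 (SE; limma adjusted p = 0.546).

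**Figure D3:**
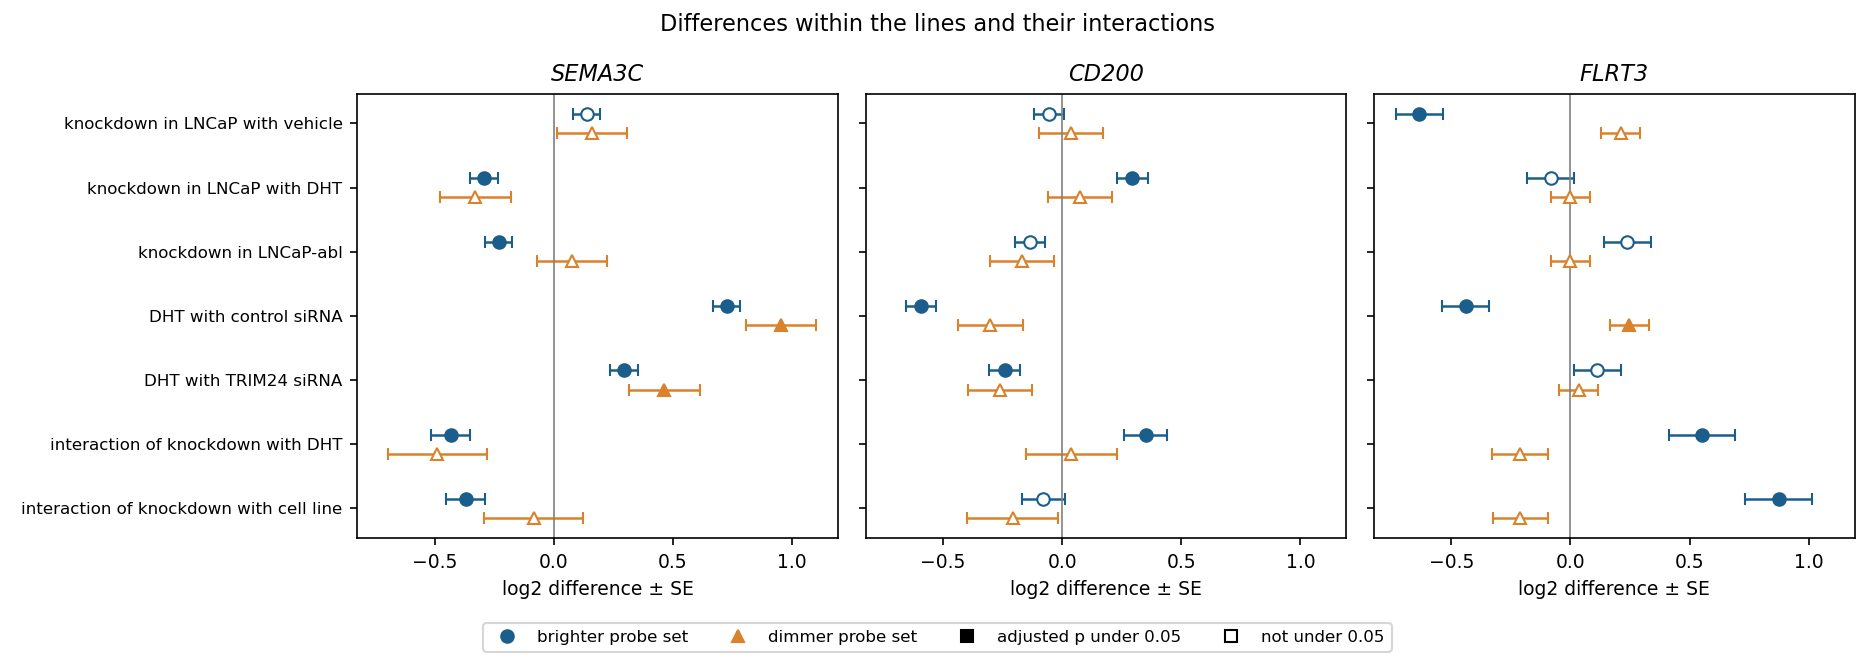
Log2 difference ± SE from the limma fit for both probe sets of SEMA3C, CD200 and FLRT3 in the knockdown and DHT comparisons and both interactions; filled points had an adjusted p under 0.05. The SEMA3C probe sets lie on the same side of 0 in all LNCaP comparisons, and the FLRT3 probe sets lie on opposite sides in knockdown with vehicle, DHT with control siRNA and both interactions.

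Ordered by group mean, the brighter SEMA3C probe set ran from LNCaP with control siRNA and DHT, through LNCaP with TRIM24 siRNA and DHT, TRIM24 siRNA and vehicle, and control siRNA and vehicle, to LNCaP-abl with control and then TRIM24 siRNA. No neighbours in that order overlapped in their arrays. In the dimmer probe set the LNCaP vehicle groups overlapped each other, as did the LNCaP-abl groups. For CD200 the order of the brighter probe set was LNCaP-abl with control siRNA, LNCaP-abl with TRIM24 siRNA, and then the LNCaP vehicle groups, which overlapped, above the DHT groups. For FLRT3 it was LNCaP-abl with TRIM24 siRNA above LNCaP-abl with control siRNA, then LNCaP with control siRNA and vehicle, and last the other 3 LNCaP groups, which overlapped with their neighbours in the order. In the dimmer CD200 probe set all neighbouring LNCaP groups overlapped. The dimmer FLRT3 probe set had overlapping LNCaP-abl groups and put LNCaP with control siRNA and vehicle last.

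The pathway genes around the members came from 8 lists of 117 genes, with the members left out, of which 87 were tested. With TRIM24 siRNA, 22 were higher and 37 lower in LNCaP-abl than in LNCaP, which is 67.8% against 69.8% of all genes. By size, 5 of the 87 differed by at least 4, all of them lower, where 0.404% of all genes were lower by that much. They were the membrane semaphorin SEMA6D (-4.38), the slit receptor ROBO1 (-4.03), the ephrin EFNB2 (-6.53), and the ephrin receptors EPHA3 (-5.16) and EPHA7 (-6.57). All but EFNB2 were below 5.88 in LNCaP-abl with TRIM24 siRNA. Dimmer probe sets gave -3.2 to 0.36 for SEMA6D and -0.42 and 0.075 for EPHA3, but -5.52 for EFNB2 and -6.1 to -4.6 for EPHA7. No listed gene was higher by at least 4, the direction of CD200 and FLRT3, and the 5 lower ones share the direction of SEMA3C. The members were picked for their line difference and the listed genes were not, so nothing is read from how their sizes compare.

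Among other class 3 semaphorins, the secreted family of SEMA3C, SEMA3F alone passed the filter. Its brighter probe set was lower in LNCaP-abl with TRIM24 siRNA (log2 difference -0.32, limma adjusted p = 2.33e-06). The dimmer SEMA3F probe sets gave -0.014 and 0.145. Of 10 tested neuropilins and plexins, the receptors, 2 were higher and 4 lower in that comparison, which called 69.8% of all genes. Their median difference was 0.031, against -0.029 over all genes. The neuropilin NRP1 was bright in both lines, with means of 11.28 in LNCaP and 11.27 in LNCaP-abl with control siRNA. With TRIM24 siRNA the lines differed by 0.030 ± 0.043 in NRP1 (SE; limma adjusted p = 0.547). NRP1 rose with knockdown by 0.36 in LNCaP without DHT, 0.76 with it and 0.40 in LNCaP-abl (limma adjusted p = 5.07e-06, 1.05e-09 and 1.37e-06), but the mean of its probe sets turned the first value to -0.019. The SEMA3C receptor PLXND1 had means between 6.60 and 7.07. Of 12 membrane semaphorins, 6 were called for DHT with control siRNA, all lower, among them SEMA6D (-1.93) and SEMA6A (-1.39), a share near the 45.7% of all genes.

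CD200R1, the receptor of CD200, was below 5.88 in all groups, with means between 4.03 and 4.23. Of 9 other tested surface ligands that restrain immune cells, 1 was higher and 5 lower in LNCaP-abl with TRIM24 siRNA. That comparison called 69.8% of all genes, so the number called is near the share of all genes. The median difference of the 9 was -0.44, against -0.029 over all genes. CD24 (-2.27), NECTIN2 (-1.83) and CD274 (-1.63), which encodes PD-L1, were among the lower ones. Dimmer probe sets gave -2.503 to -1.387 for CD24, -0.9 to -0.715 for NECTIN2 and -0.156 for CD274. In its brighter probe set CD276 rose with knockdown in each setting, by 0.35 in LNCaP without DHT, 0.45 with it and 0.30 in LNCaP-abl. Its dimmer probe sets gave 0.053 and 0.193 without DHT, 0.188 and 0.209 with it, and 0.225 and -0.022 in LNCaP-abl. Knockdown called 38.5%, 40.2% and 45.6% of all genes in these settings.

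FLRT1 and FLRT2, the other family members, were below 5.88 in all groups, so FLRT3 was the one FLRT gene with a bright signal. Of 7 tested binding partners, 4 were higher and 3 lower in LNCaP-abl with TRIM24 siRNA, in a comparison that called 69.8% of all genes. In the brighter probe sets the receptor FGFR2 was 2.92 higher and the netrin receptor UNC5B 0.79 higher, while FGFR3 (-1.95) and FGFR1 (-0.87) were lower. The dimmer probe sets gave -0.016 to 2.16 for FGFR2 and 0.19 and 0.29 for UNC5B. They gave 0.06 for FGFR3 and -0.42 to 0.10 for FGFR1. TRIM24 knockdown called 4 of the 7 in each of its 3 settings, all higher, where it called 38.5%, 40.2% and 45.6% of all genes. It raised UNC5B by 0.38 and 0.24 in LNCaP without and with DHT and by 0.54 in LNCaP-abl. With the mean of a gene's probe sets the count was 2 in each LNCaP setting. The netrin, slit and RGM list (11 tested) had 4 higher and 3 lower in LNCaP-abl with TRIM24 siRNA. The ephrin list (19 tested) had 5 and 8, and the immunoglobulin and cadherin list (18 tested) 4 and 7. All genes were called at 69.8% in that comparison, and nothing is read from these counts.

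Genes with the pattern most like each member were ranked by Pearson r over the 18 arrays among the 2944 tested genes whose group means spanned at least 1. Since the arrays form a cluster per line, r mostly restates the line difference and is a description. For SEMA3C they were GALNT7, MARCKS, ETV1, TMEFF2 and MAP2, all at r = 0.999, and within the 12 LNCaP arrays their r was 0.917, 0.972, 0.93, 0.883 and 0.745. For CD200 they were SLC25A43, MPP1, BMP2, NNT-AS1 and DOCK10, and within the 6 LNCaP-abl arrays r ran from -0.907 to 0.503. For FLRT3 they were FREM3, CTAG2, TPBG, BMP2 and DOCK10, with r from -0.155 to 0.776 within LNCaP-abl. BMP2 and DOCK10 stood in the lists of both CD200 and FLRT3. The within-line values for CD200 and FLRT3 rest on 6 arrays over which those genes vary little.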

How the data were processed

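The authors deposited log2 expression values for 18 arrays, summarised with RMA per the submitters' processing notes, version not given in the sources used here, so background correction, quantile normalization and probe summary were done before deposit and low signals have no true zero. Of 54675 probe sets, 62 controls were left out, and 41097 had 1 gene symbol, updated through the gene identifier. Each gene was read from its brighter probe set. Genes were kept when 3 arrays reached 5.88. Group means of all arrays were fitted in limma 3.58.1 (R 4.3.3) with 12 residual degrees of freedom, two-sided, with Benjamini-Hochberg adjustment over all 13613 genes and a call at an adjusted p under 0.05. The fit was tested on simulated data. Pathway genes were named by the smallest adjusted p, up to 4 per list and comparison, together with genes that a count or a receptor pair turns on. The members and lists were chosen with earlier results of these data known. Alternatives covered filters, probe sets, scaling, weights, covariate, replicate block and each array left out. Replicate numbers did not pair the arrays: 6 of 45 pairs of same-numbered arrays from different groups had deviations correlated over 0.1 (range -0.296 to 0.196). Promoters and coordinates are RefSeq on GRCh38.p14.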

Additional observations from a re-analysis of the deposited data

Results flagged for a closer look

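For 5 results the effect of TRIM24 knockdown differed between settings by a test of the difference itself, in the brighter probe set of each gene. Knockdown changed the DHT response of SEMA3C in LNCaP by -0.43 on the log2 scale, and the dimmer probe set gave -0.49, which did not pass. For CD200 the value was 0.35 in the brighter probe set and 0.039 in the dimmer one, and with the RNA quality covariate the call was lost (0.34, limma adjusted p = 0.0565). For FLRT3 it was 0.55 in the brighter probe set and -0.21 in the dimmer one, so no direction can be given. SEMA3C was bright in all those groups, and CD200 and FLRT3 were below 5.88 in all of them.

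Between LNCaP-abl and LNCaP, the knockdown effect differed by -0.37 for SEMA3C in the brighter probe set, against -0.083 in the dimmer one (limma adjusted p = 0.815), and the mean of the probe sets, -0.23, did not pass. For FLRT3 the difference was 0.87 in the brighter probe set and -0.21 in the dimmer one (limma adjusted p = 0.215). SEMA3C was below 5.88 in LNCaP-abl, and FLRT3 was below it in LNCaP, so each value rests partly on dim signal. Each value also contains the line difference with control siRNA that picked the genes, so its test is no independent check.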

How the results depend on the processing

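Of 492 values of the 3 genes under alternative processing, 457 kept their direction and their side of the threshold, among them all line differences with TRIM24 siRNA and the SEMA3C rises with DHT. The choice of probe set ended or turned most of the others, and the cause was not tested. Read from the dimmer probe set alone, knockdown gave 0.21 for FLRT3 with vehicle and 0.078 for SEMA3C in LNCaP-abl, both reversed, and -0.33 for SEMA3C and 0.077 for CD200 with DHT, neither called. That probe set gave -0.30 for CD200 and a reversed 0.25 for FLRT3 under DHT with control siRNA, and -0.26 for CD200 with TRIM24 siRNA. Its interactions with DHT were -0.49 for SEMA3C, 0.039 for CD200 and a reversed -0.21 for FLRT3, and those with cell line were -0.083 for SEMA3C and a reversed -0.21 for FLRT3. With the mean of a gene's probe sets, calls were lost for CD200 with knockdown and DHT (0.19), SEMA3C with knockdown in LNCaP-abl (-0.077), FLRT3 with DHT (-0.097), the DHT interactions of CD200 (0.19) and FLRT3 (0.17), and the line interaction of SEMA3C (-0.23). With the RNA quality covariate, calls were lost for knockdown with DHT of SEMA3C (-0.21) and CD200 (0.26), for knockdown in LNCaP-abl of SEMA3C (-0.19) and for the DHT interaction of CD200 (0.34). For knockdown with DHT the SE was 0.11 for SEMA3C and 0.13 for CD200 with that covariate, against 0.06 for both without it. That covariate cut the genes called for knockdown with DHT from 5466 to 2669, and the absence of a filter cut those of the interaction with DHT from 1506 to 993.

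Calls were gained for SEMA3C with knockdown and vehicle by an intensity trend with a robust prior (0.14) and for CD200 in LNCaP-abl by centring arrays (-0.17). FLRT3 with knockdown in LNCaP-abl passed with quantile normalization (0.27) and, at an unchanged 0.24, with a stricter filter, the intensity trend, only the groups compared (limma adjusted p = 0.00267), and the replicate block (limma adjusted p = 0.0242). The replicate block changed no other call of the 3 genes. With each array left out in turn, the SEMA3C difference for knockdown with vehicle ran from 0.11 to 0.17, and the interactions with DHT ran from 0.27 to 0.41 for CD200 and from 0.46 to 0.67 for FLRT3, with calls that changed as given in the report.

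Among named pathway genes, 3101 of 3360 values stayed on their side, 252 fell short of the threshold and 7 reversed. With the most variable probe set these were SEMA4D with knockdown and vehicle (0.041) and in LNCaP-abl (0.11), CD47 with knockdown and vehicle (0.24) and in the interaction with cell line (-0.088), and ALCAM with knockdown and DHT (-0.036). With the mean of probe sets they were NRP1 with knockdown and vehicle (-0.019) and PLXNB2 between the lines with TRIM24 siRNA (0.034). List counts moved by over 1.5 times in 33 of 256 alternatives. Signals below 5.88 limit what can be read of CD200 and FLRT3 in LNCaP and of SEMA3C in LNCaP-abl. Of the 5 genes most like each member, 3 to 5 were the same under 4 alternatives chosen after seeing the data.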
